A study of Canis lupus familiaris with 2 samples.

Results

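Dominant and recessive forms of retinitis pigmentosa, in which rods degenerate first and cones later, can follow from variants in genes of the splicing machinery, which every cell uses. The 8 genes of that kind described here are *PRPF3*, *PRPF4*, *PRPF6*, *PRPF8*, *PRPF31*, *SNRNP200*, *RP9* and *CWC27*. The rule names them and uses no measured value. All 8 were listed in both dogs, among 34981 gene names in N350 and 19930 in N354, and no gene was absent from either.

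The data are single cells of neuroretina from 2 dogs, N350 and N354, both male, 40 weeks old and normal or wild-type. There was no treatment and no affected animal, so the comparisons are between cell classes within dogs, and each dog gave 1 library from retinal punches. In this droplet assay each mRNA molecule is counted once through its unique molecular identifier (UMI), read near its 3′ end. N350 had 8895 cells with at least 200 genes and N354 had 4387, with medians of 1298 and 1204.5 UMIs per cell. The libraries shared 6 cell barcodes.

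Introns are removed by the spliceosome, which is assembled on each transcript from small nuclear ribonucleoproteins (snRNPs). U4 and U6 arrive paired to each other and joined to U5 as the tri-snRNP, and U4 must then be unwound from U6 before catalysis. *PRPF3* and *PRPF4* encode partner proteins of the U4/U6 snRNP, and *PRPF31* encodes a protein that binds U4 RNA. *PRPF6* encodes the protein that bridges U5 to U4/U6. *PRPF8* encodes the large U5 scaffold at the catalytic centre, and *SNRNP200* encodes the helicase that unwinds U4 from U6. *RP9* encodes a nuclear protein that associates with PRPF3, and *CWC27* encodes a cyclophilin-like protein of the activated spliceosome.

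Each cell was placed in a class from the raw UMIs of marker genes, with no clustering, and these classes are not the authors' own annotation. Rods numbered 4858 in N350 and 2839 in N354, and cones 373 and 212. Müller glia numbered 357 and 138, bipolar cells 436 and 255, horizontal cells 150 and 24, and amacrine cells 301 and 36. The markers chose the cells, so their levels only describe the classes. Rod markers summed to 395 UMIs per 10000 UMIs in rods of N350 (8 markers) and 318 in rods of N354 (6 markers). The 4 horizontal markers, *ONECUT1*, *ONECUT2*, *LHX1* and *CALB1*, were all found in horizontal cells of both dogs and summed to 103 and 88.8. *WIF1* was at 0 in Müller glia of both dogs, and *TMEM215* was at 0 in bipolar cells of N350. Rod markers were also counted in the other classes, from 8.74 to 40.4 per 10000 in N350 and from 1.7 to 29.5 in N354, highest in bipolar cells of N350 and in cones of N354. The source of these counts and their part in the levels below were not tested. In N350, 2299 cells were left without a class, as were 843 in N354, including cells whose markers did not favour a single class clearly enough. They held 32.5% and 35.2% of all UMIs and 25.4% and 26.1% of those of the 8 genes. Their UMIs of Müller markers were 52692 and 37983, against 40660 and 19270 in the gated Müller glia. Levels of Müller glia therefore describe only the gated part of these cells. Astrocytes (45 cells), ganglion cells (26) and vascular cells (36) reached 20 cells in N350 but not in N354, and only the 6 classes before them were compared.

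Of the 6 classes, the summed level of the 8 genes per 10000 UMIs of all genes was highest in rods and lowest in Müller glia in both dogs. In rods it was 6.21 UMIs per 10000 UMIs (exact Poisson 95% interval 6.02 to 6.42) in N350 and 12.1 (11.7 to 12.5) in N354. Bipolar cells followed closely at 5.8 (5.35 to 6.29) and 11.1 (10.2 to 11.9). Rods over bipolar cells was a ratio of 1.07 (exact conditional 95% interval 0.982 to 1.17) for N350 and 1.09 (1.01 to 1.19) for N354, so in N350 these neighbours did not differ beyond counting error. Horizontal cells had 4.85 and 8.41, amacrine cells 4.6 and 8.84, and cones 4.36 and 7.83. The intervals of these 3 classes overlapped in each dog. Müller glia had 2.83 (2.64 to 3.03) and 5.96 (5.47 to 6.49), apart from the other 5 classes in each dog. In N350 the few astrocytes had 3.91 (3.29 to 4.62), vascular cells 3.64 (2.91 to 4.51) and ganglion cells 2.63 (2.22 to 3.09), and the last 2 overlapped Müller glia. All intervals cover counting error only. The order of rods and bipolar cells depended on the total used. With mitochondrial UMIs left out of it, bipolar cells had 10.1 ± 4.72 and rods 9.8 ± 4.53 as means over the dogs (SD, n = 2). Müller glia stayed lowest, at 4.79 ± 2.53. That rank holds for totals of UMIs. In the edgeR fit below, which scales otherwise, each class was also set against the mean of the other classes. There the median log2 fold change of the 8 genes was -0.36 in Müller glia and -0.41 in amacrine cells, against -0.10 and -0.03 over all genes.

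**Figure D1:**
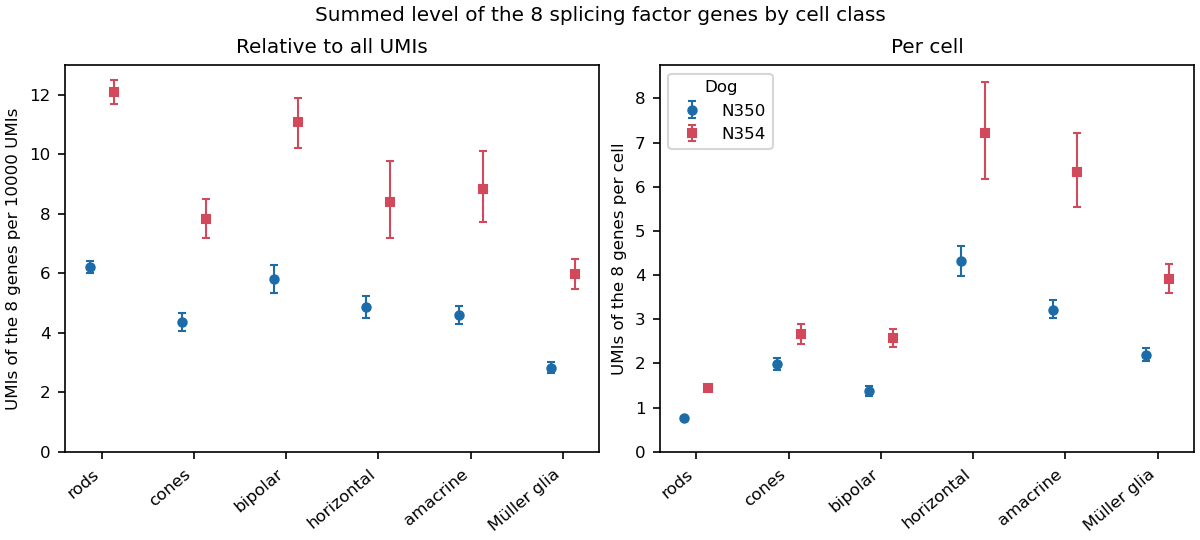
Summed UMIs of the 8 genes in each cell class per 10000 UMIs (left) and per cell (right), for dogs N350 (circles) and N354 (squares), with bars for exact Poisson 95% intervals. Relative to all UMIs rods stand at 6.21 and 12.1 and Müller glia at 2.83 and 5.96, while per cell rods are lowest, at 0.772 and 1.45.

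The summed level in N354 lay above that in N350 in every class. Over all cells the ratio was 2.04 (1.98 to 2.1), from 1.18 (0.985 to 1.42) for *PRPF4* to 2.5 (2.21 to 2.83) for *PRPF3*. The counts of the dogs were made on different gene annotations, so animal and annotation cannot be told apart, and levels are compared only between classes of the same dog. As means over the dogs, the summed level was 9.15 ± 4.16 in rods, 8.43 ± 3.72 in bipolar cells, 6.09 ± 2.46 in cones and 4.4 ± 2.22 in Müller glia (SD, n = 2). That SD is mostly the difference between the dogs. The sum weighs its most counted genes most. Over all cells *PRPF8* held 25.4% of it in N350 and 28.9% in N354, and *SNRNP200* 25.2% and 28.8%. *RP9* held 2.38% and 1.54%.

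Per cell the order turned over. A rod held 0.772 UMIs of the 8 genes in N350 and 1.45 in N354, fewer than any other of the 6 classes. Bipolar cells held 1.37 and 2.57, cones 1.98 and 2.67, Müller glia 2.2 and 3.91, amacrine cells 3.22 and 6.33, and horizontal cells 4.31 and 7.21. Rods are small in RNA, with medians of 1089 and 1027 UMIs per cell against 3822 and 2559.5 in cones and 8214 and 5974.5 in Müller glia. Because they are many, rods still held 35.5% and 47.4% of all UMIs of the 8 genes, with 54.6% and 64.7% of the cells.

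Within rods the summed level differed little with depth. Rods with fewer than 1000 UMIs, with 1000 to 3000 and with 3000 or more had 6.47, 6.12 and 6.29 per 10000 in N350 and 12, 12.1 and 12.4 in N354. Among cells with at least 3000 UMIs, cones had 4.42 and 8.13, bipolar cells 5.68 and 11.3, amacrine cells 4.54 and 8.64, and Müller glia 2.82 and 5.96. Horizontal cells had 4.85 in N350 and too few such cells in N354. Rods were again highest and Müller glia lowest of the classes given. These rods were only 78 and 42 cells, and their intervals overlapped those of bipolar cells in both dogs. In N354, cones with fewer than 1000 UMIs had 4.63 and bipolar cells 5.32, with intervals below those at 3000 or more. In N350 these intervals overlapped. Per 10000 UMIs of all genes, mitochondrial ones included, the level in rods was lower where more of the RNA was mitochondrial. It was 6.72 (interval 6.43 to 7.03) with under 5% of UMIs on 13 mitochondrial genes and 5.42 (4.87 to 6.01) with 10% or more in N350, and 13.2 (12.5 to 13.8) and 10.6 (9.87 to 11.4) in N354. Mitochondrial UMIs are part of that total, so a larger share of them lowers such a level by itself. How much of the fall comes from this was not tested. Median mitochondrial shares were 4.8% and 6.08% in rods, 7.67% and 11.9% in cones and 13.2% and 17.3% in bipolar cells.

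Whether photoreceptors differ from the other classes was tested with UMIs summed per dog and class, in 1 fit of edgeR's quasi-likelihood test over 12 sums with dog as a block and Benjamini-Hochberg adjustment over 9678 genes. Rods and cones, weighted equally, were set against bipolar, horizontal, amacrine and Müller cells. Of the 8 genes, 1 was higher and 0 were lower, whereas 50.6% of all genes tested passed in either direction, 26.9% higher and 23.7% lower. The gene was *PRPF8*. The median log2 fold change of the 8 genes was 0.21, against 0.05 over all genes, and 7 of 8 were above 0, as were 52.6% of all genes. Since 6 classes of a dog come from 1 animal and there are 2 animals, these p-values rest on few independent samples.

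Rods alone gave a wider difference. Of the 8 genes, 4 were higher in rods than in the other classes and 0 were lower, beside 56.3% of all genes called, 30.5% higher and 25.7% lower. DESeq2 left 1 of these 4 calls (*PRPF8*), and edgeR without the block for dog left 0. Calls over all genes also fell without the block, as given in the closing section. For DESeq2 the share of all genes called is not set beside this count. The median log2 fold change of the 8 genes was 0.46 against 0.10 over all genes. All 8 were above 0, as were 53.8% of all genes, but *RP9* was at -0.21 in N350 alone, and *RP9* (-0.03) and *CWC27* (-0.05) were below 0 with DESeq2. The median over all genes moved to 0.16 when total UMIs replaced TMM and to -0.05 under DESeq2, so a change of that size has no direction here. Cones alone gave 0 of 8 in either direction under edgeR and under DESeq2, beside 32.7% of all genes called under edgeR. At the looser threshold of an unadjusted edgeR p under 0.05, 1 of 8 passed, and all genes were not counted at that threshold. The median in cones was -0.05 against 0.01 over all genes.

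**Figure D2:**
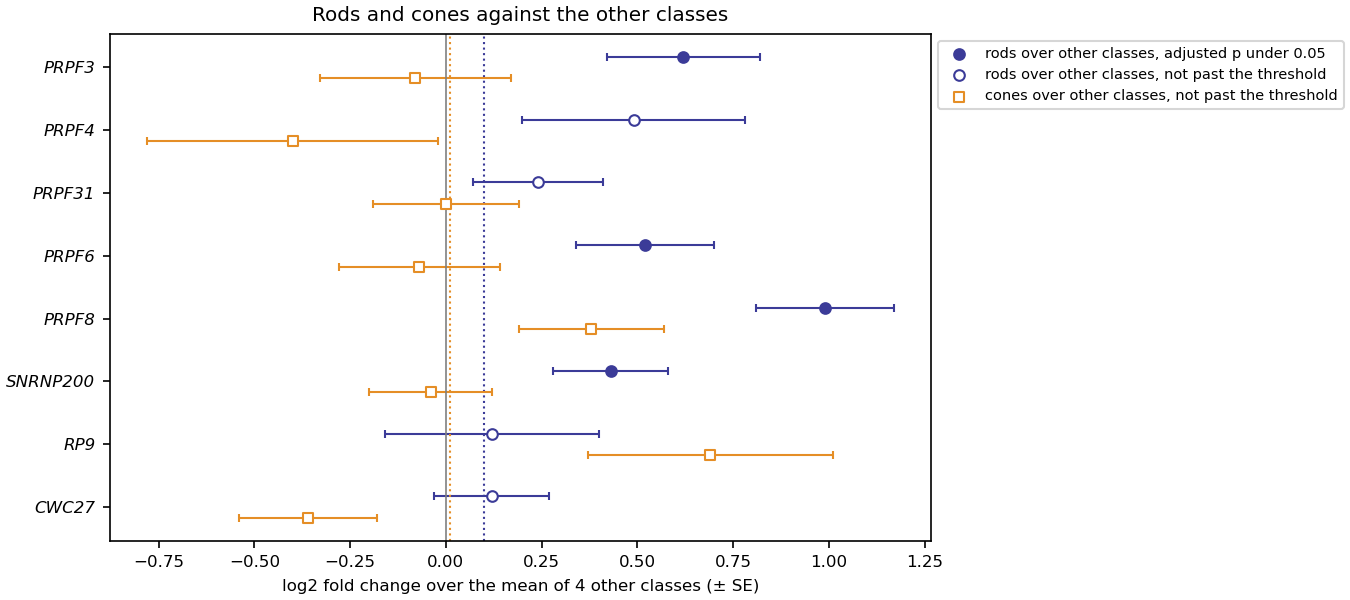
Log2 fold change (± SE, edgeR) of each gene in rods (circles) and in cones (squares) over the mean of bipolar, horizontal, amacrine and Müller cells, filled where the adjusted p is under 0.05, with dotted lines at the median of all genes (0.10 for rods and 0.01 for cones). *PRPF3*, *PRPF6*, *PRPF8* and *SNRNP200* are filled for rods, and none is filled for cones.

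Of the U4/U6 proteins, 1 of 3 was called. *PRPF3* was at 0.302 per 10000 UMIs in rods of N350 (182 UMIs) and 0.784 in rods of N354 (267 UMIs). In the other 5 classes it ranged from 0.188 to 0.233 in N350 and from 0.374 to 0.608 in N354. Rods thus lay above every other class in both dogs, although the intervals of bipolar, horizontal and amacrine cells overlapped theirs in both dogs and that of cones did in N350. The log2 fold change of rods over the other classes was 0.62 (SE 0.20, edgeR adjusted p = 0.0143), with 0.41 in N350 and 0.81 in N354 taken alone. Without the block for dog the adjusted p was 0.377.

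*PRPF4* was the second scarcest of the 8, with 379 UMIs over all cells of N350 and 181 in N354. Its level in rods was 0.232 and 0.288 per 10000. Cones had 0.171 in N350 (29 UMIs) and 0.0554 in N354 (4 UMIs), the lowest class of that dog. In rods over the other classes the log2 fold change was 0.49 (SE 0.29, edgeR adjusted p = 0.157), which did not pass. Amacrine cells were lowest in N350, at 0.104, and highest in N354, at 0.31 on 8 UMIs, so the classes of this gene did not keep their order between dogs.

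*PRPF31* was similar across the neurons. Its level was 0.708 in rods of N350 and 0.975 in rods of N354, 0.803 and 0.931 in amacrine cells, 0.698 and 0.972 in horizontal cells and 0.595 and 0.762 in cones. Only Müller glia, at 0.41 (0.339 to 0.493) and 0.453 (0.325 to 0.614), had intervals apart from those of rods in both dogs. In rods over the other classes the log2 fold change was 0.24 (SE 0.17, edgeR adjusted p = 0.254), and in cones it was -0.00 (SE 0.19).

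The bridging protein and the U5 proteins made up the other calls. *PRPF6* was at 0.618 in rods of N350 and 1.4 in rods of N354. It was at 0.608 and 0.778 in horizontal cells, 0.579 and 1.4 in amacrine cells, 0.572 and 0.929 in bipolar cells, 0.465 and 0.748 in cones and 0.238 and 0.519 in Müller glia. Rods were thus within counting error of horizontal, amacrine and bipolar cells in N350, and level with amacrine cells in N354. The log2 fold change of rods over the other classes was 0.52 (SE 0.18, edgeR adjusted p = 0.0209), but 0.26 in N350 alone against 0.81 in N354 alone. The adjusted p was 0.122 with DESeq2 and 0.363 under edgeR without the block.

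*PRPF8* had the largest difference of the 8 genes in rods over the other classes. Rods had 1.85 (1115 UMIs) in N350 and 3.8 (1294 UMIs) in N354, and bipolar cells had 1.68 and 3.56. Cones followed with 1.11 and 2.44 and amacrine cells with 1.04 and 2.05. Horizontal cells had 0.773 and 0.729, and Müller glia 0.619 and 1.35. Rods and bipolar cells were above the other 4 classes in both dogs, with intervals apart from theirs. The ratio of rods to Müller glia stood at 2.98 (2.54 to 3.52) for N350 and at 2.82 (2.34 to 3.42) for N354, and that of rods to bipolar cells was 1.1 (0.937 to 1.3) and 1.07 (0.921 to 1.24).

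In the fit *PRPF8* was higher in photoreceptors than in the other classes by 0.68 on the log2 scale (SE 0.15, edgeR adjusted p = 0.000912) and in rods by 0.99 (SE 0.18, edgeR adjusted p = 0.000115). In cones the value was 0.38 (SE 0.19, edgeR adjusted p = 0.156). In rods it was 0.80 in N350 and 1.30 in N354 taken alone. Without the block for dog, the adjusted p was 0.161 for photoreceptors and 0.115 for rods. With horizontal and amacrine cells left out, since N354 had under 50 of each, the value for photoreceptors was 0.31 (edgeR adjusted p = 0.0469) and that for rods was 0.61 (edgeR adjusted p = 0.00222).

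*SNRNP200* followed *PRPF8* with smaller differences. It was at 1.58 (953 UMIs) in rods of N350 and 3.25 (1108 UMIs) in rods of N354, and bipolar cells lay beside rods at 1.52 and 3.41. The remaining classes ranged from 0.799 in Müller glia to 1.18 in amacrine cells of N350, and from 1.99 in horizontal cells to 2.29 in amacrine cells of N354. Rods over the other classes gave a log2 fold change of 0.43 (SE 0.15, edgeR adjusted p = 0.0189), with 0.37 in N350 and 0.52 in N354 alone. Its call was lost with DESeq2 (adjusted p = 0.129), without horizontal and amacrine cells (edgeR adjusted p = 0.322) and without the block (edgeR adjusted p = 0.576). *PRPF3* lost its call in the first 2 of these as well (adjusted p = 0.0928 and 0.182).

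The UMIs of *PRPF8* for each UMI of *SNRNP200* give the balance of these U5 partners within a class. Only its change between classes is read, as its size depends on how well each 3′ end was counted. The ratio was 1.17 in rods of both dogs (intervals of 1.07 to 1.28 and 1.08 to 1.27). The ratio was 1.1 and 1.04 in bipolar cells, 1.03 and 1.08 in cones and 0.88 and 0.898 in amacrine cells. In Müller glia it was 0.775 (0.631 to 0.95) and 0.613 (0.485 to 0.772), and in horizontal cells 0.746 (0.573 to 0.97) and 0.366 (0.188 to 0.675). The intervals of Müller glia and horizontal cells did not reach those of rods in either dog.

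**Figure D3:**
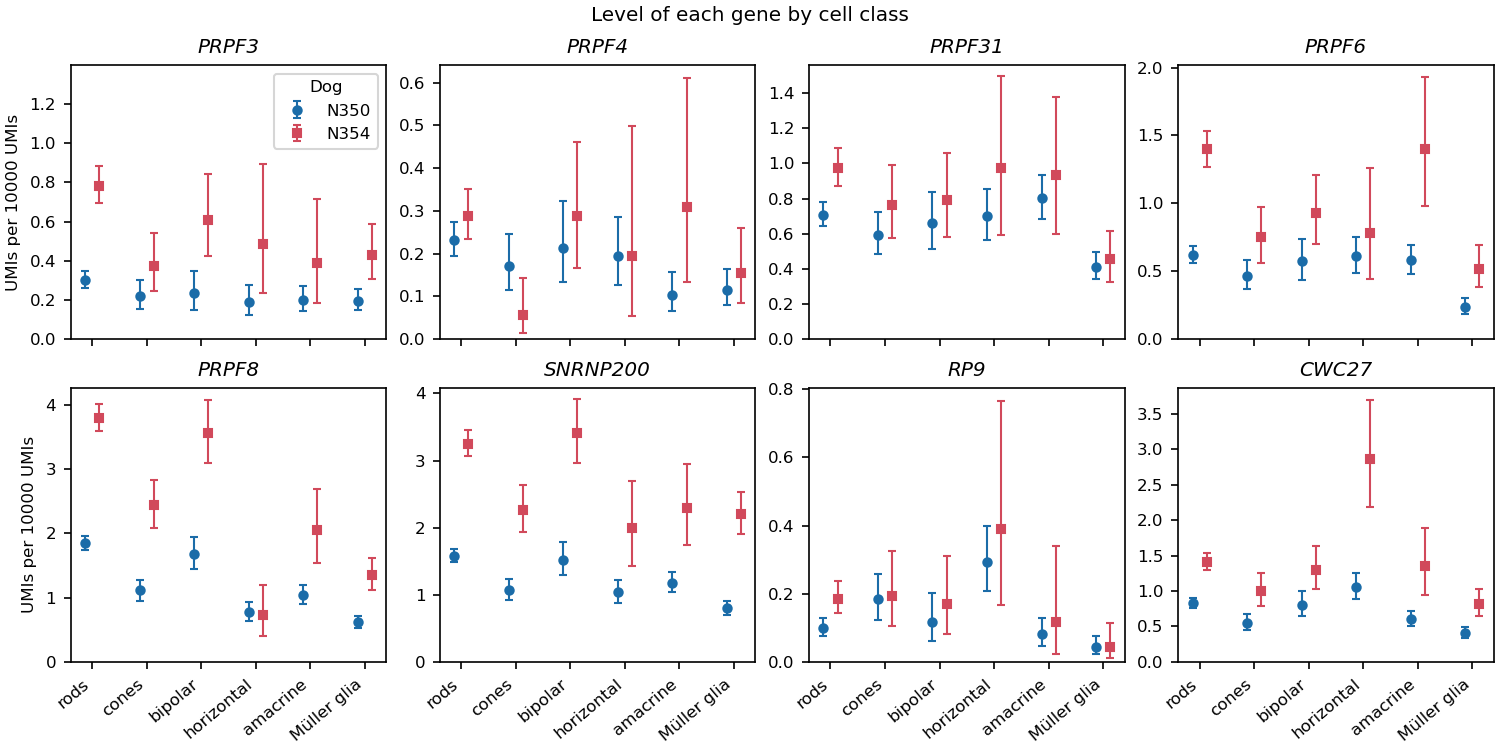
Level of each gene in UMIs per 10000 UMIs by cell class, for dogs N350 (circles) and N354 (squares), with bars for exact Poisson 95% intervals and a scale of its own for each gene. *PRPF8* and *SNRNP200* are high in rods and bipolar cells, while *RP9* and *CWC27* are highest in horizontal cells of both dogs. For *RP9*, horizontal cells are within counting error of cones in both dogs, and for *CWC27* they are within counting error of bipolar cells in N350.

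*RP9* and *CWC27* were highest in horizontal cells. *RP9* was the scarcest of the 8, with 251 UMIs over all cells of N350 and 134 in N354. Its level was highest in horizontal cells, at 0.293 (39 UMIs) in N350 and 0.389 (8 UMIs) in N354. Horizontal cells over cones gave a ratio of 1.6 (0.975 to 2.66) for N350 and 2 (0.729 to 5.12) for N354, within counting error in both. In N354 horizontal cells were also within counting error of rods, bipolar cells and amacrine cells. Cones came next at 0.183 (31 UMIs) and 0.194 (14 UMIs). Bipolar cells had 0.116 and 0.169 and rods 0.0994 and 0.185, so these classes changed order between the dogs. Amacrine cells had 17 UMIs in N350 and 3 in N354. Müller glia were lowest at 0.0432 (12 UMIs) and 0.0442 (4 UMIs). In cones over the other classes *RP9* had a log2 fold change of 0.69 (SE 0.32, edgeR adjusted p = 0.112) and in rods 0.12 (SE 0.28, edgeR adjusted p = 0.824), neither past the threshold. Without horizontal and amacrine cells it passed in cones, at 1.12 (edgeR adjusted p = 0.0373), and in photoreceptors, at 0.82 (edgeR adjusted p = 0.0454). The ratio of cones to rods was 1.84 (1.15 to 2.88) for N350 and 1.05 (0.543 to 1.89) for N354.

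*CWC27* was at 0.829 in rods of N350 and 1.41 in rods of N354. Horizontal cells had 1.06 (0.89 to 1.25) and 2.87 (2.18 to 3.7), the highest class in both dogs, the latter from 24 cells. Horizontal over bipolar cells gave a ratio of 1.31 (0.995 to 1.74) for N350, within counting error, and 2.21 (1.54 to 3.14) for N354. Cones had 0.548 and 0.998, and Müller glia 0.41 and 0.817. The log2 fold change was 0.12 (SE 0.15, edgeR adjusted p = 0.539) in rods and -0.36 (SE 0.18, edgeR adjusted p = 0.138) in cones over the other classes.

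The photoreceptors were also compared with each other. Cones over rods gave 0 of 8 calls under edgeR and under DESeq2, beside 24.9% of all genes called under edgeR and 11.4% called lower. At the looser threshold of an unadjusted edgeR p under 0.05, 6 of 8 were lower in cones. The share of all genes at that threshold was not counted. The median log2 fold change of the 8 genes was -0.53 against -0.10 over all genes. *RP9* alone lay above 0, at 0.57 (SE 0.35, edgeR adjusted p = 0.261), and *PRPF4* was at -0.89 (SE 0.41, edgeR adjusted p = 0.124), a value that rests on N354, with -0.33 in N350 alone and -2.12 in N354 alone on 4 UMIs in cones. With total UMIs in place of TMM, *PRPF3*, *PRPF6*, *PRPF8* and *SNRNP200* passed as lower in cones, with edgeR adjusted p-values from 0.0226 to 0.0465. The median over all genes also fell then, from -0.10 to -0.17. These calls are not set against the share of all genes lower under that scaling. For the summed level, the ratio of cones to rods stood at 0.701 (0.647 to 0.759) for N350 and at 0.647 (0.592 to 0.707) for N354.

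Counted per cell, with the number of cells as library size, the same test gave the opposite direction. In photoreceptors over the other classes all 8 genes were lower, as were 72.9% of all genes. In rods all 8 were lower as well, as were 82.1% of all genes, and the median log2 fold change was -1.71 for the 8 genes against -2.02 over all genes. Cones held more than rods for 7 of 8 genes, beside 75.9% of all genes. Against the other classes, *SNRNP200* (-0.59, SE 0.17, edgeR adjusted p = 0.00863) and *CWC27* (-0.90, SE 0.20, edgeR adjusted p = 0.00154) were lower per cone, and 30.2% of all genes were lower.

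After the levels had been seen, each class was also set against the mean of the other 5. In horizontal cells *RP9* was higher by 1.56 (SE 0.32, edgeR adjusted p = 0.00102) and *CWC27* by 0.94 (SE 0.17, edgeR adjusted p = 0.000289), while *PRPF8* had a log2 fold change of -1.0 (SE 0.23, edgeR adjusted p = 0.0027). There 33.4% of all genes were called, 17% higher and 16.4% lower. *RP9* was at 1.52 in N350 and 1.37 in N354 alone and *CWC27* at 0.76 and 1.14. *PRPF8* was at -0.59 and -1.91, the latter on 15 UMIs in 24 cells. Without the block for dog the adjusted p was 0.0362 for *RP9*, 0.211 for *CWC27* and 0.178 for *PRPF8*. In these 24 cells rod markers were at 1.7 per 10000 and bipolar markers at 0.0972, whereas amacrine markers were at 8.31 in horizontal cells of both dogs.

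In Müller glia *PRPF6* (-0.65, SE 0.21, edgeR adjusted p = 0.0192) and *RP9* (-1.33, SE 0.38, edgeR adjusted p = 0.00807) were lower, beside 47.4% of all genes called and 21.6% lower. The level of *PRPF6*, *PRPF8*, *PRPF31*, *SNRNP200*, *RP9* and *CWC27* per 10000 UMIs was lowest in Müller glia of N350, but the fit does not use all UMIs as its scale. Its TMM factors were 0.718 and 0.791 in Müller glia and 0.94 to 1.31 in the other classes. In bipolar cells *PRPF8* was higher by 0.71 (SE 0.19, edgeR adjusted p = 0.00997), beside 19.9% of all genes called and 12.7% higher. The 4 genes called in rods before were again called, beside 54.4% of all genes called and 29.9% called higher. Under the alternatives, these contrasts of single classes were read for horizontal cells only. Cones and amacrine cells had 0 calls under edgeR, beside 25.1% and 32.8% of all genes called. At the looser threshold of an unadjusted edgeR p under 0.05 they had 2 and 4 of the 8 genes, and all genes were not counted there. DESeq2 results were not read for these contrasts of cones and amacrine cells.

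**Figure D4:**
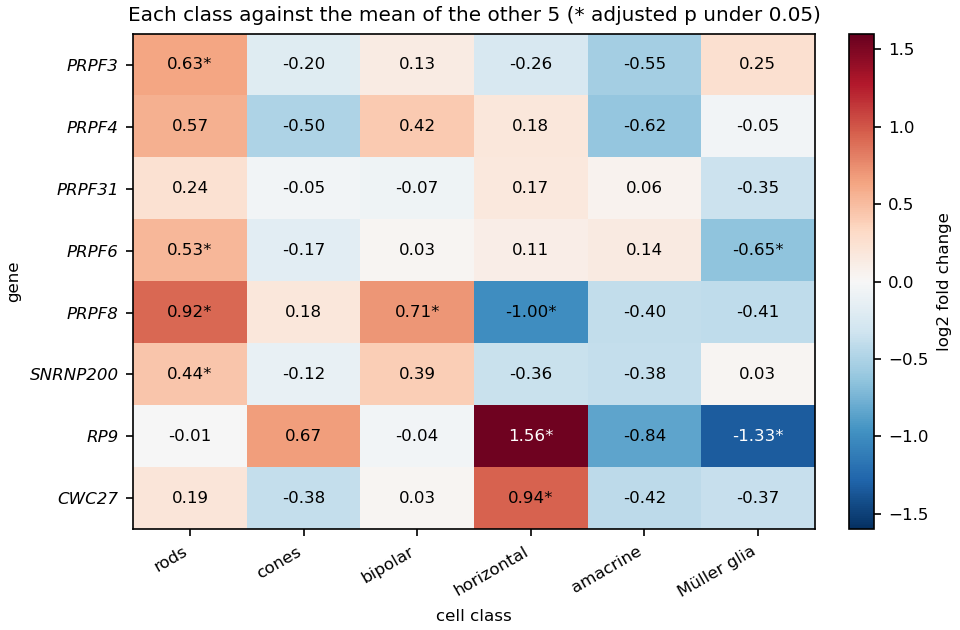
Log2 fold change of each gene (rows) in each cell class (columns) over the mean of the other 5 classes, in the edgeR fit with dog as a block, red where higher and blue where lower. Stars mark adjusted p under 0.05, which are 4 in rods, 3 in horizontal cells, 2 in Müller glia and 1 in bipolar cells.

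Across the 12 sums, centred within each dog, some of the genes varied together. Pearson's r was highest between *PRPF8* and *SNRNP200* (0.849), *PRPF3* and *SNRNP200* (0.803) and *RP9* and *CWC27* (0.719). *PRPF31* had 0.634 with *RP9* and 0.628 with *PRPF6*, and *PRPF4* reached at most 0.452, with *PRPF3*. The lowest r was -0.401, between *PRPF8* and *CWC27*. The sums share their dogs and libraries, and these values are a description of 12 points. Other genes were then set against the summed 8 genes, a sum in which *PRPF8* and *SNRNP200* weigh most over all cells. *CENATAC*, a minor spliceosome gene, had the pattern most like it (r = 0.971 over 12 sums), among 5586 genes with at least 500 UMIs. *CEP63*, a centrosomal gene (0.965), *PPP4R1*, a phosphatase 4 regulatory subunit (0.961), *ICE2* of the little elongation complex (0.951) and *PHF3*, a PHD finger gene (0.948), came next. *CENATAC* was at 0.668 and 0.934 per 10000 in rods and at 0.148 and 0.232 in Müller glia.

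Other spliceosome genes were counted for comparison, from 4 lists of 65 genes of which 51 were tested. In photoreceptors over the other classes 16 were higher and 2 lower, beside 26.9% higher and 23.7% lower of all genes, and their median log2 fold change was 0.16 against 0.05. In rods 23 were higher and 1 lower, beside 30.5% and 25.7% of all genes, with a median of 0.40 against 0.10. In cones 2 were higher and 1 lower, beside 32.7% of all genes called. In cones over rods 0 were higher and 12 lower, beside 11.4% of all genes lower.

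The lists differed in their counts. Of 20 proteins of the Prp19 complex and of the steps around catalysis, 9 were higher in photoreceptors and 0 lower, with a median of 0.30. Of 12 U2 and branch site proteins 5 were higher and 0 lower (median 0.27). Of 14 other tri-snRNP proteins 1 was higher and 1 lower (median 0.01), and of 5 Sm and U1 proteins 1 was higher and 1 lower (median 0.00). The difference between lists was not tested.

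*DHX16*, a helicase that acts just before the first catalytic step, was at 0.555 and 1.39 per 10000 in rods and 0.359 and 0.637 in cones, against 0.112 and 0.21 in Müller glia. It was higher in photoreceptors by 1.31 (SE 0.17, edgeR adjusted p = 3.55e-06). *CRNKL1*, of the complexes that activate the spliceosome, was higher by 0.82 (SE 0.14, edgeR adjusted p = 0.000127) and *PRPF4B*, a kinase of splicing factors, by 0.78 (SE 0.11, edgeR adjusted p = 1.29e-05). *SNRPD1*, a protein of the Sm ring, had a log2 fold change of -0.47 (SE 0.12, edgeR adjusted p = 0.00297). Bipolar cells stood apart for it, at 12.9 and 15.8 per 10000, while rods had 2.57 and 3.39 and cones 2 and 2.48. *LSM4*, of the ring on U6, had -0.46 (SE 0.15, edgeR adjusted p = 0.0143).

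Some of these counts may include reads of neighbours. By RefSeq's dog annotation *PRPF6* overlaps *SAMD10*, *CWC27* overlaps *SREK1IP1* and *RP9* overlaps another protein-coding gene, and *PRPF31* and *PRPF8* overlap noncoding genes. How the counting divided such reads in each annotation was not tested. *RP9*, with 251 and 134 UMIs in all, is the least certain of the 8.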

How the data were processed

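Neuroretina of 2 normal dogs was dissociated and libraries were made with the 10x Genomics 3′ v3.1 kit. Reads were processed by the authors with Cell Ranger (6.0.2 in the file headers) on canFam6. What they deposited are UMI counts for each gene in each cell barcode, with no normalization. N350 had 24030707 UMIs in 8900 barcodes and N354 had 9711202 in 4392. N350 lists 34981 gene names and N354 lists 19930, of which 15224 occur in both, and counts of a name given more than once in N354 were summed. The members, lists and tests were chosen with earlier results of these data known.

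Cells with at least 200 genes were kept. A cell was gated to a class with at least 3 UMIs from at least 2 markers of the class, a marker share at least 3 times that of its whole dog (1.5 times for rods) and at least 2 times that of the next class. Of 71 markers 65 were listed in N354. No mitochondrial limit was applied, since only 1 name in N350 starts with MT- against 12 in N354. The paper excluded cells with over 5% mitochondrial content. With under 5% of UMIs on such names, all 8895 cells of N350 stayed. Of the classes compared, N354 then kept 1241 rods, 12 Müller glia, 3 amacrine cells, 1 cone, 1 bipolar cell and 0 horizontal cells. Most cells of N354 used here outside rods thus fall beyond that limit. Doublets were not removed: Scrublet (in scanpy 1.11.5) marked 0% and 0.0912% by its own threshold, which has not worked, so leaving out the 4% with the highest scores was an alternative.

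Levels are UMIs per 10000 UMIs of all genes and UMIs per cell, with exact Poisson 95% intervals and exact conditional intervals of ratios (scipy 1.17.1, pandas 2.3.3 and numpy 2.4.6 in Python 3.11.15). Classes with at least 20 cells in both dogs were summed per dog and tested with edgeR 4.0.16 (R 4.3.3), its quasi-likelihood test, TMM and dog as a block, over names in both dogs with at least 10 UMIs in each, leaving out the gate markers. A gene is called at an adjusted p under 0.05. Each SE beside an edgeR fold change is approximate. It was computed as the absolute log2 fold change over the square root of the test's F statistic. DESeq2 1.42.0 was an alternative. Dog is a block because all classes of a library are from the same animal, and their deviations from class means correlated by 0.599 to 0.829 (median 0.689, 15 pairs). Tested on simulated data, photoreceptors over other classes recovered 154 of 200 genes changed by a log2 of 1 (77%), with 9 false calls among 9678 genes. The simulation changed only well-counted genes, in rods and cones alike, with each sum drawn independently. Its 77% therefore does not apply to smaller changes or to changes in rods alone. The alternatives were other gates, limits on mitochondrial UMIs, scalings, count minimums, class sets and each dog alone. Genes named are the 8 members, gate markers, up to 3 spliceosome genes in each direction with the smallest p, and the 5 genes of most similar pattern. Mitochondrial limits of 5% could not be fitted, since N354 then kept no class but rods with 20 cells. All 8 genes matched RefSeq's table (assembly UU_Cfam_GSD_1.0), whose build differs from the one the paper names for these libraries, so coordinates are not given.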

Additional observations from a re-analysis of the deposited data

How the results depend on the processing

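The fit depended on the pairing of sums by dog. With no block for dog, 0 of the 8 genes were higher in photoreceptors and 0 in rods, horizontal cells had 1 gene higher (*RP9*, edgeR adjusted p = 0.0362) and 0 lower, and the counts over all genes fell to 1126 higher and 1030 lower for photoreceptors, 1224 and 1062 for rods, 674 and 272 for cones, and 245 and 56 for cones over rods. The number of the 8 genes higher in photoreceptors was 2 in place of 1 with at most 10% of UMIs on 13 mitochondrial genes, which left only Müller glia and amacrine cells as other classes, and with horizontal and amacrine cells left out, where *RP9* also passed (edgeR adjusted p = 0.0349 and 0.0454). In rods it was 2 in place of 4 under both of these, 2 with at least 50 UMIs per gene and dog, and 1 (*PRPF8*) with DESeq2. In cones it was 1 (*RP9*) in place of 0 under the former pair. Lower in cones than in rods were 4 with total UMIs, and 1 (*PRPF8*) with the 10% limit, with no filter on low counts, without horizontal and amacrine cells and with the other classes summed to 1 sum per dog. With total UMIs the median over all genes for cones over rods was -0.17 in place of -0.10. DESeq2 gave 601 genes lower in cones than rods in place of 1099. Apart from these and the fit without the block, calls among the 8 genes are not set against calls over all genes. A change in such a count therefore need not be particular to the 8 genes. *PRPF8* in rods passed under every alternative with a test except the fit with no block, with log2 values from 0.61 to 1.08. In fits of both dogs these signs turned, all for genes that never passed in that comparison. In photoreceptors *PRPF4* was at -0.00 with a gate of 5 UMIs, -0.04 with a gate margin of 4 and without high doublet scores, -0.11 with DESeq2, -0.06 with 50 UMIs, -0.08 with no block and -0.14 without horizontal and amacrine cells. *SNRNP200* was at -0.06 without those cells, and *CWC27* at 0.04 there, 0.13 with the 10% limit and 0.02 with other classes summed. In rods *RP9* was at -0.03 with DESeq2 and with 50 UMIs, and *CWC27* at -0.05 and -0.04. In cones *PRPF6* was at 0.10 without horizontal and amacrine cells and 0.07 with other classes summed, *PRPF31* at 0.12 and 0.13 there, 0.03 with no filter and 0.04 with no block, and *SNRNP200* at 0.01 with no block. Signs also turned in a dog taken alone, where no test was run. In photoreceptors *PRPF4* was at -0.64 in N354 and *PRPF31* at -0.04 in N350. In rods *RP9* was at -0.21 in N350. In cones *PRPF3* was at 0.05 and *PRPF4* at 0.13 in N350, and *PRPF31* at 0.17 and *SNRNP200* at 0.06 in N354. The causes were not tested. A limit of 5% on mitochondrial UMIs was not run as a test, since N354 kept only rods with 20 cells. With mitochondrial UMIs left out of the total, the mean summed level was higher in bipolar cells (10.1) than in rods (9.8). N354 had few horizontal (24) and amacrine cells (36), and every p-value rests on 2 dogs.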
